A study of Rattus norvegicus with 6 samples.

Results

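The genes described are those of the rat proteasome, including the 3 inducible subunits of the immunoproteasome, Psmb8, Psmb9 and Psmb10. They were taken as every non-control probe whose RefSeq accession belongs to a symbol that begins with Psma to Psmg and a number. This gave 45 genes, each with 1 probe and 1 spot, of 13903 named genes on the array. Psmc3ip and Psme3ip1 fit the name pattern but encode binding partners, which left 43 subunits, activators, inhibitors and assembly chaperones. Of these 43, 41 passed the filter on dim probes (a signal well above background in 3 or more of the 6 scans), among 8728 named genes that did. Psma8 and Psme2 were above background on no scan, and Psmd8 and Psmd10 passed through the 3 control scans alone. Psmd11, Psmb11, Psme4, Psmg1 and Psmg3 were not analysed here. The rule uses gene names and no measured value, but the members were chosen with earlier results of these data known.

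One group was pancreas of male rats of 6 weeks with acute pancreatitis (AP), and the other was pancreas of control rats of the same sex and age. AP is an inflammation of the gland, and here it was induced with 4% sodium taurocholate, a bile salt, given at 1 mL/kg backwards through the pancreatic duct, 9 h before the tissue was taken. The labels give no strain and do not say what the control rats received. Each group has 3 scans of 1-colour Agilent arrays, but AP 3 is a rescan of the array of AP 2, and control 3 a rescan of the array of control 2. Spot deviations from the mean of their probe correlated at r = 0.993 and r = 0.992 in these pairs, against 0.232 to 0.735 in the other pairs (1176 spots, which are not independent). The values below therefore rest on 2 arrays per group, and this number limits their precision. The labels say that RNA was extracted rat by rat but tie no array to a single animal, so p-values measure the spread between arrays.

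The 75th percentile of the signal was 70.1 to 77.7 on the AP scans and 140 to 147 on the control scans. The number of probes well above background was 10905 to 11367 on AP scans and 13039 to 15388 on control scans, and no spot was saturated. Of the 14 acinar markers on the array, 12 were above background in each group, while the acinar transcription factors Ptf1a and Rbpjl were so on no scan. Early cytokine genes, which rise in inflamed tissue, went against the labels: Cxcl2 was at least 215-fold lower and Il6 at least 29.1-fold lower on the arrays labelled AP. Il1b had log2 levels of 0.95 and 0.76 on the AP arrays and 4.81 and 4.87 on the control arrays. Every direction below follows the deposited labels, and "AP" and "control" mean the arrays so labelled. Lymphocyte markers were higher and markers of several other cell types lower on the AP arrays, with values given beside the results. The AP arrays lay in slots 3 and 4 of the slide and the control arrays in slots 1 and 2, so slot and group cannot be told apart.

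The proteasome is the barrel-shaped protease that degrades proteins tagged with ubiquitin. Its core is built of outer alpha rings, which form the gate, and inner beta rings, which hold the active sites, and a cap of ATPases and other subunits recognises, unfolds and feeds in the substrate. In immune cells and under interferon, Psmb8, Psmb9 and Psmb10 take the places of Psmb5, Psmb6 and Psmb7 in newly made cores, which changes the peptides available for class I antigen presentation.

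Levels are given in log2, with the 75th percentile of each array set to 0. They compare 1 probe between arrays and say nothing of which gene is the more abundant. Fold changes are AP over control from limma, given with their SE, and a gene is called where its Benjamini-Hochberg p, corrected over the 13213 probes of the fit, is below 0.05. For single genes an exact permutation test of 2 arrays against 2 cannot give a two-sided p below 0.333, which is what it gave for every ratio tested.

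Most constitutive proteasome genes were lower on the AP arrays, while all 3 immunoproteasome subunits were higher. Of the 41 tested genes, 26 fell, 8 rose and 7 did not pass the test, with a median log2 fold change of -0.75. Of the 39 that were above background on all 6 scans, 25 fell and 8 rose, with the same median. Among the 8728 named genes tested, 31.9% were called lower and 24.1% higher, with a median of -0.03. The 30 tested subunits of the constitutive core and the cap gave 23 lower and 3 higher calls and a median of -0.88. The 29 of them above background on all scans gave 22 lower and 3 higher calls and a median of -0.86. Array values of the 2 groups did not overlap for 39 of the 41 genes, against 79.9% of all named genes, so separation of the groups was common on these arrays. The first scan session taken alone, which holds 1 scan of each array, also gave 26 lower and 8 higher calls. In whole tissue, fewer cells of a type and less RNA per cell cannot be told apart.

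**Figure D1:**
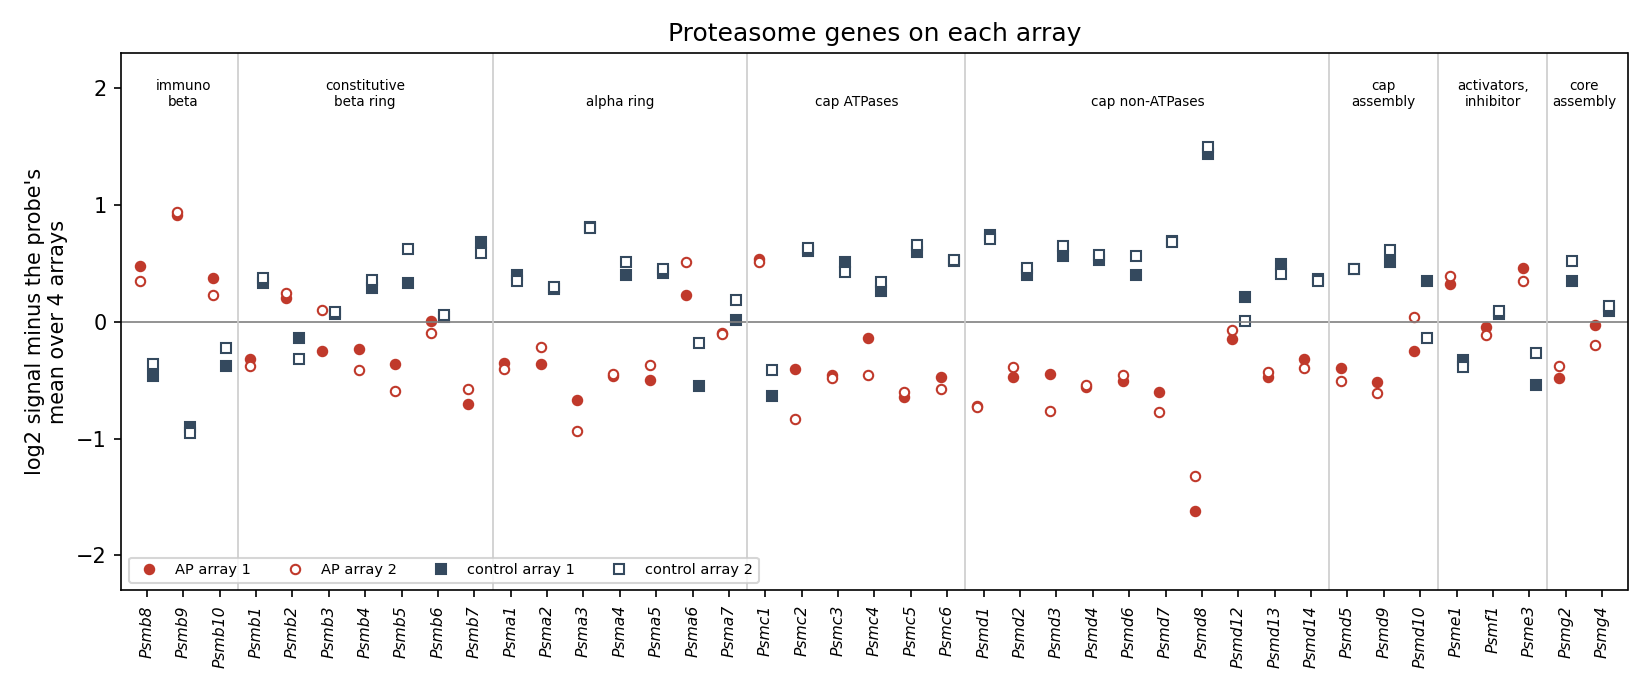
Log2 signal of each tested proteasome gene on each array, after subtracting the mean of that probe over the 4 arrays (y axis, log2 units). Red circles are the AP arrays and dark squares the control arrays, ordered by the role of the gene along the x axis. The AP arrays lie above the control arrays for Psmb8, Psmb9 and Psmb10 and below them for most core and cap genes, and Psmd8 on the AP arrays is below background.

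**Figure D2:**
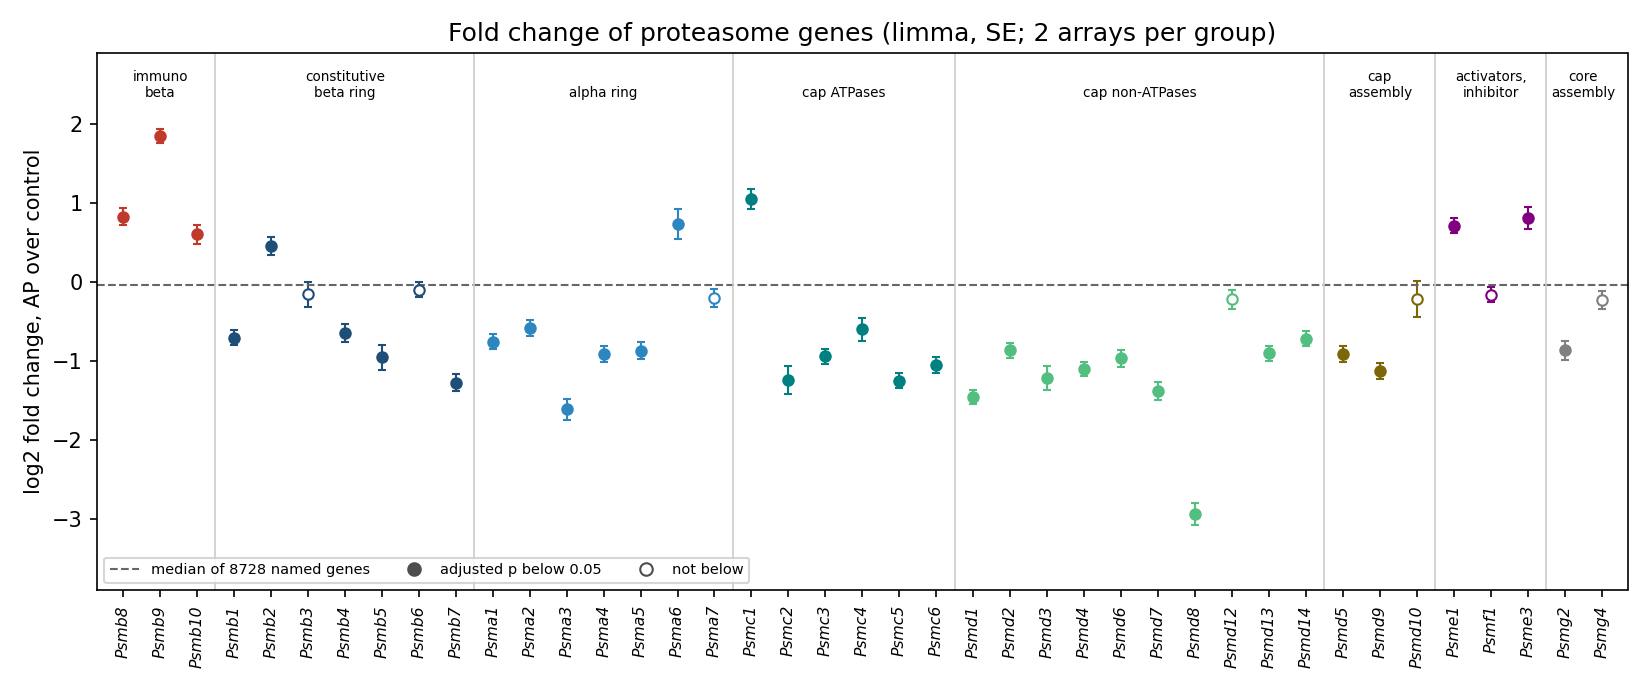
Log2 fold change of AP over control for the same genes (y axis), with bars of 1 SE from limma and 2 arrays per group. Filled points have an adjusted p below 0.05, and the dashed line is the median of 8728 named genes, at -0.03. Most cap genes lie near -1, and the point of Psmd8 is the measured value of a gene that was not well above background on the AP arrays.

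Psmb8, which carries the chymotrypsin-like site of the immunoproteasome, had 4.35 and 4.22 on the AP arrays and 3.41 and 3.51 on the control arrays. Psmb9, which replaces the caspase-like subunit, had 1.57 and 1.60 on the AP arrays and -0.24 and -0.29 on the control arrays. Psmb10, which replaces the trypsin-like subunit, had 3.38 and 3.23 on the AP arrays and 2.62 and 2.78 on the control arrays. In all 3 genes both AP arrays were above both control arrays, and the gap was widest for Psmb9. Psmb9 rose by 1.85 ± 0.09 on the log2 scale, or 3.61-fold, with an adjusted p of 0.00116. The rise of Psmb8 was 0.83 ± 0.11, or 1.77-fold (adjusted p = 0.00735), and that of Psmb10 was 0.60 ± 0.12, or 1.52-fold (adjusted p = 0.0201). Psmb10 was the least secure of them, since its adjusted p lay between 0.0549 and 0.0825 when any single array was left out. With background correction by normexp before the 75th percentile scaling, the log2 change of Psmb10 was 0.17 and that of Psmb8 0.44, and neither passed the test, while Psmb9 was 0.98 or 1.97-fold (adjusted p = 0.00532). Normexp with quantile scaling gave Psmb9 1.17, or 2.25-fold, so the size of its rise depends on the background correction. Without any scaling between arrays the log2 change was -0.35 for Psmb10 and -0.13 for Psmb8, beside a median of -0.99 over all named genes, while Psmb9 stayed higher at 0.89.

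The promoters of these subunits are shown because interferon acts on immunoproteasome genes through elements near their starts. Short motifs were searched on both strands in the 250 bases before the start, in RefSeq sequence of assembly GRCr8: a pair of GAAA blocks with any 2 bases between them for the interferon response element, TTCNNNGAA for the gamma activated site and TGACNNNGC for the antioxidant response element. Capitals mark the matches, which do not overlap each other, and each sequence reads 5′ to 3′ on the strand of its gene.
Psmb8 promoter, GRCr8 chr20:4657032-4657281, minus strand: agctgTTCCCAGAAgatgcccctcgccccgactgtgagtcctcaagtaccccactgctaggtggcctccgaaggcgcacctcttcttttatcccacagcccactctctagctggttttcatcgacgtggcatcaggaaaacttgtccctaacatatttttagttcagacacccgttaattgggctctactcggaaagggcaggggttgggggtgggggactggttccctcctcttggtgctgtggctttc
Psmb9 promoter, GRCr8 chr20:4668750-4668999, plus strand: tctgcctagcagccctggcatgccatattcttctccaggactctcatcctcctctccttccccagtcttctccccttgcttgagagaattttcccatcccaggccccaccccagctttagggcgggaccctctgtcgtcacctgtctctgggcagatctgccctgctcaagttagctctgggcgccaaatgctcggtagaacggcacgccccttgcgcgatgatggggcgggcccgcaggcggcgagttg
Psmb10 promoter, GRCr8 chr19:50743293-50743542, minus strand: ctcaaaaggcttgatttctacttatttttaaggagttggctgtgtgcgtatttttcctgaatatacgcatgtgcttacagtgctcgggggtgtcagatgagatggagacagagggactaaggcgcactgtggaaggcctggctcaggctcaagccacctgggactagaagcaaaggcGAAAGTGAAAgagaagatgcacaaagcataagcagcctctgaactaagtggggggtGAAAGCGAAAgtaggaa
Psmb10 has 2 interferon response matches, whose first bases lie 73 and 17 bases before the start, and Psmb8 has 1 gamma activated match 245 bases before it. No match of the 3 motifs lies in the window of Psmb9, the gene with the largest rise among the 3, which says only that these letters are absent there. The interferon response letters occur in 3.41% of 33469 rat promoters of this length and in 5 of the 39 proteasome promoters matched, those of Psma4, Psmb3, Psme2, Psmb10 and Psmd7. The gamma activated letters occur in 7.67% of all promoters and in 4 of the 39, those of Psmd3, Psmc6, Psmd7 and Psmb8. Psma4, Psmd3, Psmd7 and Psmc6 were all lower on the AP arrays, so genes with a match lay on both sides.

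Of the constitutive subunits that the 3 inducible ones replace, 2 fell and 1 did not pass the test. Psmb5, with the chymotrypsin-like site, had 3.04 and 2.81 on the AP arrays and 3.74 and 4.02 on the control arrays. Psmb7, with the trypsin-like site, had 2.29 and 2.42 on the AP arrays and 3.68 and 3.59 on the control arrays. Psmb6, with the caspase-like site, had 0.56 and 0.45 on the AP arrays and 0.59 and 0.61 on the control arrays. The AP arrays were well below the control arrays for Psmb5 and Psmb7, and only slightly below them for Psmb6. Psmb7 fell by 1.27 ± 0.11 on the log2 scale, 2.42-fold lower (adjusted p = 0.00308), and Psmb5 fell by 0.95 ± 0.16, 1.93-fold lower (adjusted p = 0.0143). The log2 change of Psmb6 was -0.09 ± 0.10 and did not pass the test (adjusted p = 0.463).

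Within an array, the log2 ratio of an inducible subunit to the one it replaces does not depend on any scaling between arrays by a single factor. Only its shift between groups can be read, because the 2 probes of a ratio differ. Psmb8 over Psmb5 gave 1.30 and 1.41 on the AP arrays and -0.32 and -0.52 on the control arrays. Psmb9 over Psmb6 gave 1.02 and 1.14 on the AP arrays and -0.83 and -0.90 on the control arrays. For Psmb10 over Psmb7 the ratios were 1.08 and 0.81 on the AP arrays and -1.06 and -0.81 on the control arrays. No AP ratio overlapped a control ratio in any pair. The shifts were 1.78 ± 0.11 for Psmb8 over Psmb5 (3.43-fold), 1.95 ± 0.07 for Psmb9 over Psmb6 (3.85-fold) and 1.88 ± 0.18 for Psmb10 over Psmb7 (3.68-fold), each with an exact permutation p of 0.333, the smallest possible. With the 75th percentile scaling the shift of the Psmb9 pair came almost wholly from Psmb9, whereas in the other pairs the constitutive subunit also fell. Unlike the ratio, this split depends on the scaling. Without scaling Psmb9 was 0.89 and Psmb6 -1.05, beside a median of -0.99 over all named genes. The mean of the 3 inducible subunits shifted by 1.87 against the mean of Psmb5, Psmb6 and Psmb7, by 1.63 against the 14 constitutive core genes and by 1.95 against the 15 cap genes above background on all scans. After normexp and the 75th percentile the shifts were smaller but kept their sign, at 1.63 for Psmb8 over Psmb5, 1.13 for Psmb9 over Psmb6 and 1.60 for Psmb10 over Psmb7.

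**Figure D3:**
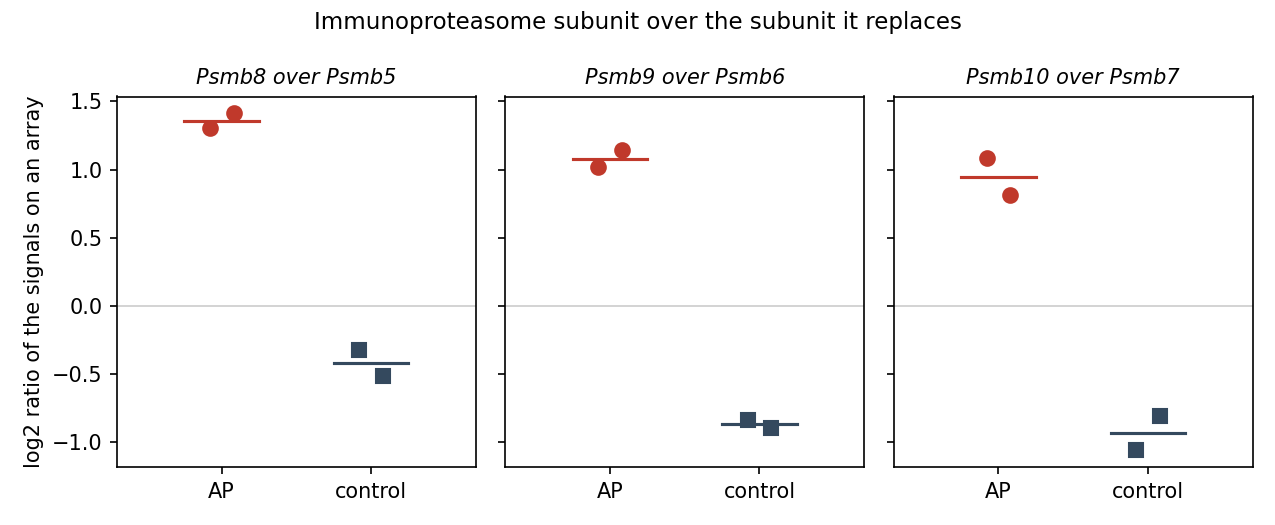
Log2 ratio of each inducible subunit to the constitutive subunit it replaces, within each array (y axis, log2 units). Red circles are the 2 AP arrays, dark squares the 2 control arrays and bars their means. The AP ratios lie between 0.81 and 1.41 and the control ratios between -1.06 and -0.32 in the 3 pairs, and heights are not comparable between pairs.

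The promoters of the constitutive partners are shown for comparison, since the antioxidant response element is the site through which the factors NRF1 and NRF2 act on constitutive proteasome genes.
Psmb5 promoter, GRCr8 chr15:32047380-32047629, minus strand: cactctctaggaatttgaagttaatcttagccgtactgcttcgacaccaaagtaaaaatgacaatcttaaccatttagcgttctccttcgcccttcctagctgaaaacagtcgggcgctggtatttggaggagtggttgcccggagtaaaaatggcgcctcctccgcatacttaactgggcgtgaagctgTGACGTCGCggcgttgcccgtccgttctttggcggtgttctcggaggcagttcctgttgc
Psmb6 promoter, GRCr8 chr10:55737638-55737887, plus strand: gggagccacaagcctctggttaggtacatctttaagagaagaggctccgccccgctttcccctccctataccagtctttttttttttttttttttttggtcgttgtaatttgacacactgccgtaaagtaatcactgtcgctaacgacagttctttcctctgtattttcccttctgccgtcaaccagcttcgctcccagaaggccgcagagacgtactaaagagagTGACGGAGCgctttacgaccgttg
Psmb7 promoter, GRCr8 chr3:42827471-42827720, minus strand: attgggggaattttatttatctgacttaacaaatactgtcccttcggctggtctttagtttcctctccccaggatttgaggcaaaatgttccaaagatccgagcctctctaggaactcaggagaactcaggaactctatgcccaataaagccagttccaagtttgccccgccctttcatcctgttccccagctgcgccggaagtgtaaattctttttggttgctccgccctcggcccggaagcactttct
Psmb5 has 1 antioxidant response match, with its first base 60 bases before the start, Psmb6 has 1 at 24 bases, and Psmb7 has no match of the 3 motifs in this window. The letters occur in 10.1% of all promoters and in 6 of the 39 proteasome promoters, those of Psmb2, Psma3, Psmd1, Psmb6, Psmd9 and Psmb5. Of these 6 genes, Psma3, Psmd1, Psmd9 and Psmb5 fell, Psmb2 rose and Psmb6 did not pass the test.

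The other beta subunits shape the ring without an active site of their own in the mature core. Psmb1 had 3.27 and 3.21 on the AP arrays and 3.92 and 3.96 on the control arrays, and Psmb4 had 2.80 and 2.62 on the AP arrays and 3.32 and 3.39 on the control arrays. Both were lower on each AP array, by -0.70 ± 0.09 for Psmb1 (adjusted p = 0.00795) and -0.64 ± 0.12 for Psmb4 (adjusted p = 0.0161). Psmb2 went the other way, at 1.02 and 1.06 on the AP arrays and 0.68 and 0.50 on the control arrays, a rise of 0.45 ± 0.11 (adjusted p = 0.0364). Psmb3 had 5.02 and 5.37 on the AP arrays and 5.34 and 5.36 on the control arrays, so its groups overlapped, and it was not called (log2 fold change -0.15 ± 0.16, adjusted p = 0.466). The gene table lists 10 pseudogene or like copies of Psmb3, and such copies exist for 19 of the 43 genes, but for none of Psmb5, Psmb8, Psmb9 and Psmb10. Whether the probes also bind RNA of these copies was not tested.

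In the alpha ring, which closes the entrance of the core, 5 of 7 tested genes fell, 1 rose and 1 did not pass the test, with a median log2 fold change of -0.75. Psma3 had -0.33 and -0.60 on the AP arrays and 1.15 and 1.14 on the control arrays. Psma4 had 2.18 and 2.20 on the AP arrays and 3.05 and 3.15 on the control arrays. Psma5 had 1.88 and 2.01 on the AP arrays and 2.79 and 2.83 on the control arrays. The AP arrays were below the control arrays for all 3 genes, most of all for Psma3, which fell by 1.61 ± 0.13 and was 3.04-fold lower (adjusted p = 0.00294). After normexp the fall of Psma3 was smaller, at -0.79 with the 75th percentile, where Psma4 was -1.13 and Psma5 -1.09, and at -0.76 with quantile scaling. Psma4 fell by 0.91 ± 0.10 (adjusted p = 0.00509) and Psma5 by 0.86 ± 0.10 (adjusted p = 0.00613). Psma1 was lower at 2.97 and 2.92 on the AP arrays against 3.72 and 3.67 on the control arrays, and Psma2 fell by 0.58 ± 0.11. Psma7 had a log2 fold change of -0.20 ± 0.11 (adjusted p = 0.198). Psma6 had 5.98 and 6.26 on the AP arrays and 5.20 and 5.57 on the control arrays, a rise of 0.74 ± 0.19 (adjusted p = 0.0409). Its log2 change was 0.44 with quantile scaling, 0.34 with cyclic loess, 0.38 with normexp and quantile scaling and 0.40 in the deposited values, with adjusted p of 0.078, 0.167, 0.0515 and 0.0979, so the call rests on the scaling. Over the 14 constitutive genes of both rings, 9 fell, 2 rose and 3 did not pass the test, with a median of -0.67.

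Of the 16 tested cap genes, 14 fell, 1 rose and 1 did not pass the test, with a median log2 fold change of -1.01. Without Psmd8, which passed the filter through the control scans alone, 13 of 15 fell, with a median of -0.96. Of the 6 ATPases, which unfold the substrate and open the gate, 5 fell. Psmc5 had 2.48 and 2.53 on the AP arrays and 3.72 and 3.78 on the control arrays. Psmc2 had 2.60 and 2.17 on the AP arrays and 3.61 and 3.64 on the control arrays. Psmc6 had -0.92 and -1.02 on the AP arrays and 0.08 and 0.08 on the control arrays. These 3 genes were lower on both AP arrays, by -1.25 ± 0.09 for Psmc5 (adjusted p = 0.00248), -1.24 ± 0.18 for Psmc2 (adjusted p = 0.00965) and -1.05 ± 0.10 for Psmc6 (adjusted p = 0.00378). After normexp Psmc6 was -0.32 with the 75th percentile and no longer called (adjusted p = 0.375). Psmc3 and Psmc4 fell by 0.93 ± 0.10 and 0.60 ± 0.15. Psmc1 rose instead, with 8.03 and 8.004 on the AP arrays and 6.85 and 7.07 on the control arrays, which is 1.05 ± 0.12 or 2.07-fold (adjusted p = 0.00575). With quantile scaling, cyclic loess, normexp and quantile scaling or the deposited values its log2 change lay between 0.37 and 0.43, and it was not called after normexp with the 75th percentile (0.56, adjusted p = 0.162) or without scaling (0.10, adjusted p = 0.558).

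Of the 10 tested subunits of the cap without ATPase activity, 9 fell and Psmd12 did not pass the test (-0.22 ± 0.12, adjusted p = 0.201). Psmd8, a subunit of the lid, was not well above background on the AP arrays and had 0.34 and 0.39 on the control arrays. This makes it at least 7.03-fold lower, a bound tied to the scaling and background correction used. After normexp its measured log2 change was -0.80 with the 75th percentile and -0.96 with quantile scaling. Psmd1, the scaffold on which the cap base is built, had 2.38 and 2.37 on the AP arrays and 3.84 and 3.81 on the control arrays. Psmd7, the partner of the deubiquitinase Psmd14, had 1.13 and 0.96 on the AP arrays and 2.43 and 2.41 on the control arrays. Psmd3, another lid subunit, had 1.86 and 1.54 on the AP arrays and 2.87 and 2.96 on the control arrays. Every one of these was lower on both AP arrays, and Psmd1 fell by 1.45 ± 0.09, Psmd7 by 1.38 ± 0.11 and Psmd3 by 1.21 ± 0.15. The ubiquitin receptor Psmd4 was 2.14-fold lower (adjusted p = 0.00299) and Psmd14, which removes ubiquitin chains, fell by 0.72 ± 0.10 (adjusted p = 0.00775). Psmd2, Psmd6 and Psmd13 had changes between -0.96 and -0.86. The mean of the core shifted by 0.32 against the mean of the cap, which is small beside the shifts of the inducible subunits.

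Among the chaperones that assemble the cap base, Psmd9 had -0.26 and -0.35 on the AP arrays and 0.76 and 0.87 on the control arrays, and fell by 1.12 ± 0.10 (adjusted p = 0.00367). After normexp Psmd9 was -0.56 with the 75th percentile and not called (adjusted p = 0.113). Psmd5 had 0.11 and -0.002 on the AP arrays and 0.96 and 0.96 on the control arrays, and fell by 0.90 ± 0.10 (adjusted p = 0.00519). Psmd10, which was above background on the control scans alone, had overlapping groups and was not called (adjusted p = 0.485). Of the chaperones that assemble the core, Psmg2 had -1.03 and -0.93 on the AP arrays and -0.20 and -0.03 on the control arrays, and fell by 0.86 ± 0.12 (adjusted p = 0.008). Psmg4 had a log2 fold change of -0.23 ± 0.11 that did not pass the test (adjusted p = 0.17).

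The activators that can dock on the core in place of the cap rose where they were measured. Psme1, a subunit of the interferon-inducible activator, had 3.90 and 3.96 on the AP arrays and 3.24 and 3.18 on the control arrays. It rose by 0.72 ± 0.10, or 1.64-fold (adjusted p = 0.00778), with both AP arrays above both control arrays. After normexp with the 75th percentile Psme1 was 0.275 and not called (adjusted p = 0.467). Its partner Psme2 was above background on no scan, so it has no fold change. Psme3, which forms the nuclear activator, had 7.72 and 7.61 on the AP arrays and 6.72 and 6.99 on the control arrays, a rise of 0.81 ± 0.14 or 1.76-fold (adjusted p = 0.0145). The log2 change of Psme3 was 0.21 to 0.28 with quantile scaling, cyclic loess, normexp and quantile scaling or the deposited values, and none of these was called. The inhibitor Psmf1 had a log2 fold change of -0.16 ± 0.09 (adjusted p = 0.238). Both genes whose names fit the pattern but which are not subunits stand apart from these counts: Psme3ip1 rose by 1.06 ± 0.14 (adjusted p = 0.00709) and Psmc3ip had a change of -0.15 ± 0.10 (adjusted p = 0.262).

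Signal level moved with some of these directions. Named genes with a mean log2 level over 6, where Psmc1 and Psme3 lie, had a median log2 fold change of 0.87 over 163 genes. Those between 4 and 6, with Psma6 and Psmb3, had a median of 0.58 over 294 genes, and those between 2 and 4, with Psmb8, Psmb10, Psme1 and most core and cap genes, had -0.31 over 1155 genes. After cyclic loess, which fits such a trend between arrays, the 3 medians were 0.19, 0.31 and -0.33. Psma6 and Psme3 then lost their calls, Psmc1 stayed called at 0.42, and Psmb8, Psmb9, Psmb10, Psmb2 and Psme1 stayed called. Of the 26 genes called lower, 25 were also called lower under each of 5 other scalings (quantile, cyclic loess, the percentile over detected probes, normexp with quantile and the deposited values), and 6 of the 8 higher calls held under each of them. Of the 26 lower calls 21 held whichever array was left out, and 4 of the 8 higher calls did (Psmb8, Psmb9, Psmc1 and Psme1). Psmb5 lost its call without control 2 (adjusted p = 0.0636) or without AP 2 (adjusted p = 0.0614), and Psmc2 without either control array, with an adjusted p of at most 0.0623. Psma2, Psmb4 and Psmc4 lost theirs without 3 of the 4 arrays in turn, Psma6 and Psmb2 without any one of them, and Psme3 without any but control 2.

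**Figure D4:**
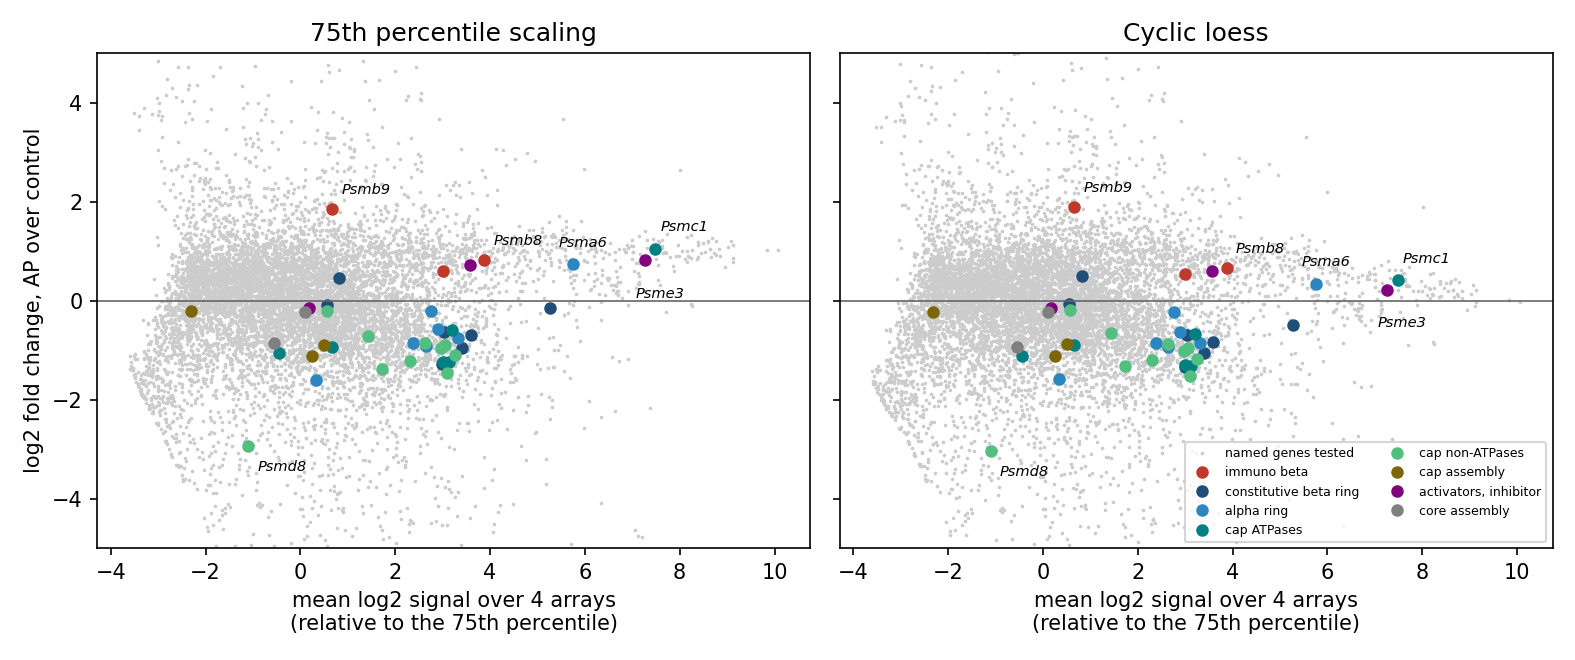
Log2 fold change of AP over control (y axis) against the mean log2 signal over the 4 arrays (x axis, relative to the 75th percentile of the array) for named genes in grey and proteasome genes in colour by role. The left panel uses the 75th percentile scaling and the right panel cyclic loess. Genes beyond the y axis are not drawn. On the left most of the brightest genes lie above 0, with Psmc1 and Psme3 among them. Psmb9 stands above the constitutive core and cap genes on both sides. Psmb8 stands above them on the right, and on the left above all of them but Psmc1.

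Proteasome partners with other names went the way of the core and cap. Of 11 tested, 10 fell and 1 rose, with a median log2 fold change of -0.91. Over all 8728 named genes tested, 31.9% were called lower and 24.1% higher. The ubiquitin receptor of the cap, Adrm1, had 1.69 and 1.63 on the AP arrays and 2.99 and 2.84 on the control arrays. Pomp, the chaperone that matures the core, had 1.11 and 1.09 on the AP arrays and 1.85 and 1.91 on the control arrays. Both were lower on each AP array, Adrm1 by -1.25 ± 0.11 and Pomp by -0.79 ± 0.09. Txnl1, a thioredoxin that binds the cap, fell by 1.33 ± 0.12, and the shuttle proteins Rad23b and Ubqln1, which bring ubiquitinated substrates, fell by 1.33 ± 0.10 and 1.20 ± 0.12. The deubiquitinase Usp14 fell by 0.93 ± 0.10, and Sem1, a small lid subunit, by 0.52 ± 0.12. Ubqln4, a further shuttle, rose by 0.61 ± 0.11. Uchl5 was not analysed here.

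NRF1 and NRF2 are factors that act on constitutive proteasome genes, and the list tested holds them, their partners and regulators, and NRF2 target genes. Of 9 tested genes, 6 fell, 1 rose and 2 did not pass the test, beside 31.9% called lower and 24.1% higher over all named genes. Of the 8 above background on all scans 5 fell and 1 rose. Nfe2l2, which encodes NRF2, had 0.49 and 0.39 on the AP arrays and 1.66 and 1.79 on the control arrays, and fell by 1.29 ± 0.11. Nfe2l1, which encodes NRF1, was not above background on the AP arrays and was at least 1.22-fold lower. Their partner Mafg fell by 2.06 ± 0.12, and the target genes Txnrd1 and Nqo1 fell by 1.98 ± 0.10 and 1.48 ± 0.12. Gclm, a further target gene on the list, had a change of 0.38 ± 0.17 that did not pass the test (adjusted p = 0.142). Ngly1, the enzyme that activates NRF1, rose by 0.71 ± 0.15. In the list of ubiquitin supply and unfolding, 8 of 14 tested genes fell and none was called higher, beside the same shares over all named genes. Among those that fell were the co-chaperone Bag3 at -2.09 ± 0.19 and the conjugating enzymes Ube2n at -1.35 ± 0.10 and Ube2d3 at -1.13 ± 0.10.

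Class I antigen processing is the pathway that uses immunoproteasome peptides. Of its 6 tested genes, 1 rose, none was called lower and 5 did not pass the test, with a median log2 fold change of 0.47. The 16.7% called higher lies below the 24.1% over all named genes, of which 31.9% were called lower. Tap2, one chain of the peptide transporter, had 0.03 and -0.10 on the AP arrays and -1.20 and -1.18 on the control arrays, and rose by 1.16 ± 0.10 (adjusted p = 0.00342). Tap1, the other chain, had 2.51 and 2.32 on the AP arrays and 2.07 and 2.16 on the control arrays, which did not pass the test (0.30 ± 0.12, adjusted p = 0.11). B2m, the light chain of class I molecules, had a change of -0.39 ± 0.11 (adjusted p = 0.0512). Nlrc5 was not analysed here.

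The interferon list was divided. Of its 11 genes above background on all 6 scans, 5 fell, 3 rose and 3 did not pass the test, with a median log2 fold change of -0.39. Over the 6761 named genes above background on all scans, 2080 were called lower and 1891 higher, with a median of 0.04. A further 4 tested genes of the interferon list passed the filter mainly or wholly through the control scans. All of these 4 were lower on the AP arrays. Isg15 was at least 12.9-fold lower and Cxcl11 at least 2.36-fold lower on the AP arrays, both without signal above background there. Ifit2, above background on 1 AP scan, had -2.08 and -2.07 on the AP arrays and 0.98 and 0.95 on the control arrays, and the guanylate-binding protein gene Gbp2 fell by 1.91 ± 0.09. Irf1, a factor that acts on immunoproteasome promoters, had 2.54 and 2.51 on the AP arrays and 1.73 and 1.91 on the control arrays, and rose by 0.70 ± 0.11 (adjusted p = 0.012). Ciita, the class II transactivator, rose by 0.84 ± 0.12 and the kinase gene Jak1 by 1.00 ± 0.18. Ifng was above background on no scan.

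Markers of lymphocytes, in which immunoproteasome genes are highly expressed, moved with Psmb8, Psmb9 and Psmb10. Of 14 tested T and NK cell markers 11 rose, 1 fell and 2 did not pass the test, and of the 9 above background on all scans 8 rose. The summed linear level of all 16 on the array, relative to the 75th percentile, was 52.5 and 53.6 on the AP arrays against 6.93 and 6.00 on the control arrays. Cd3e, of the T cell receptor complex, had 2.93 and 2.92 on the AP arrays and -1.72 and -1.69 on the control arrays. Of 7 tested B and plasma cell markers 6 rose and 1 did not pass the test, and the 8 on the array had summed levels of 20.8 and 20.5 on the AP arrays against 1.34 and 1.25 on the control arrays. Cd79b, a signalling chain of the receptor on B cells, was at least 18.3-fold higher on the AP arrays, where the control arrays had no signal above background. Cd4 and Cd28 were above background on no scan. Of 12 tested acinar markers 8 rose and none was called lower, and the 14 on the array had summed levels of 86.4 and 75.1 on the AP arrays against 65.0 and 64.5 on the control arrays. Of 6 tested neutrophil markers 4 fell and 1 rose, with S100a8, Csf3r and Camp above background on the control scans alone. The 9 neutrophil markers on the array had summed levels of 1.36 and 2.46 on the AP arrays against 17.8 and 19.3 on the control arrays. Named genes above background on all scans, 6761 in number, gave 2080 lower and 1891 higher calls. Among markers above background on all scans, 2 of 3 for dendritic cells rose and 1 fell, and neutrophils gave 1 rise and 1 fall. Of such markers 5 of 6 for adipocytes, 4 of 6 for fibroblasts, 3 of 4 for erythroid cells, 3 of 5 for duct and 2 of 2 for endothelium fell. Summed erythroid levels were 30.3 and 31.2 on the AP arrays against 637 and 736 on the control arrays. Of 6 such monocyte and macrophage markers 2 fell and 1 rose, and of 3 for islets 1 fell. The part of these cell types in the changes of the proteasome genes was not tested.

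**Figure D5:**
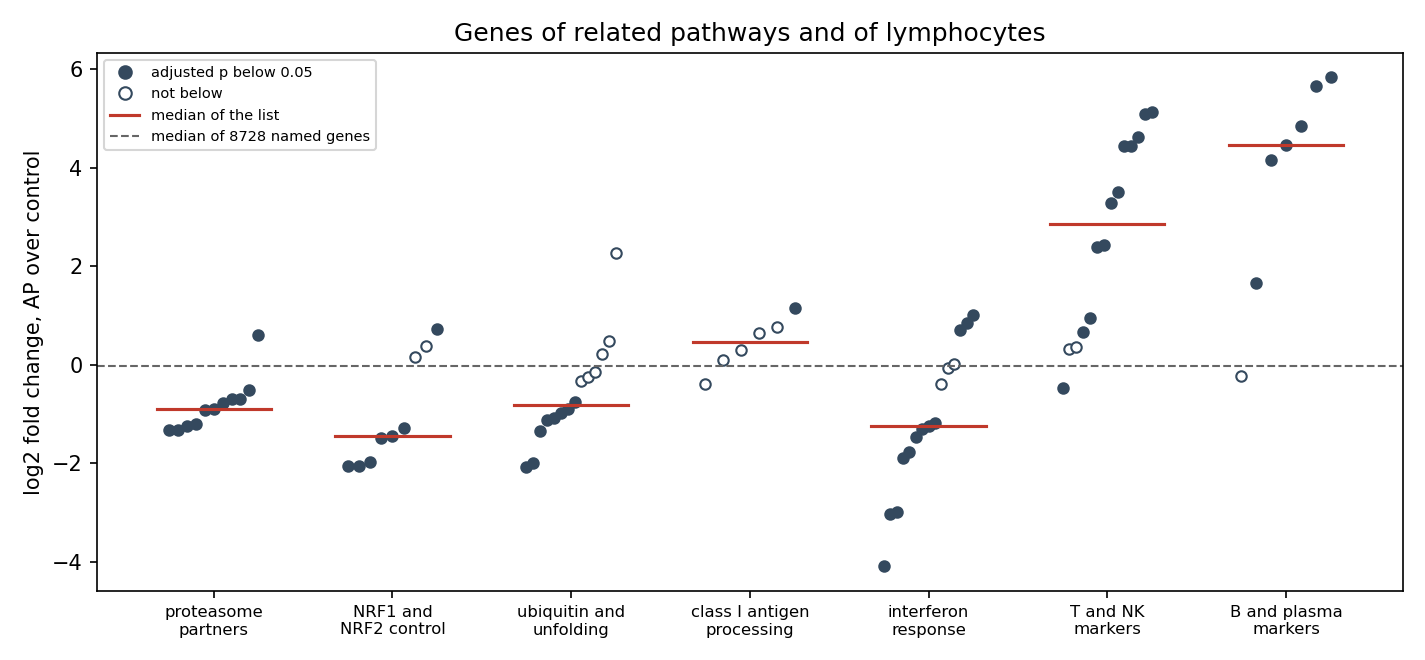
Log2 fold change of AP over control (y axis) for each tested gene of the pathway lists and the lymphocyte marker lists (x axis), with a red bar at the median of each list and a dashed line at the median of 8728 named genes. Filled points have an adjusted p below 0.05, and genes not above background in 1 group are drawn at their measured value. Proteasome partners lie mostly below 0, at a median of -0.91, the interferon list spreads to both sides, and most lymphocyte markers lie above it.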

How the data were processed

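RNA of pancreas was measured on 6 scans of 1-colour Agilent arrays. Per the labels, messenger RNA was purified after removal of ribosomal RNA, amplified with random primers and labelled with Cy3. Per the submitters' processing notes, Agilent Feature Extraction 11.0.1.1 read the scans. Per the file headers, the spot tables hold intensity values after background subtraction and spatial detrending, unscaled between arrays. Values of the deposited normalized table are in log2, with column medians between 4.267 and 4.269 and correlations of 0.976 to 0.991 with the log2 scanner signal. How it was normalized is not stated in the labels or headers, and it served as an alternative.

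Control probes and outlier-marked spots were left out. Log2 spot signals were averaged per probe, the 75th percentile of each scan was subtracted and rescans were averaged. Pairs of scans with r over 0.9 across spot deviations counted as 1 array. Probes with a signal well above background in 3 scans or more were tested, 13213 in all, with limma 3.58.1 in R 4.3.3 (lmFit and eBayes, two-sided, 2 residual degrees of freedom). For 64 of them an array of a group had no value. Where no scan of a group was well above background, the fold is a bound, taken against the lowest signal well above background on each array or the signal of the probe itself if that is higher. Python 3.11.15, numpy 2.4.6, pandas 2.3.3, scipy 1.17.1 and matplotlib 3.10.9 made the tables and figures. The fit was tested on simulated arrays of 13149 probes, 2 against 2. With 200 probes changed it recovered 0% of log2 changes of 0.5, 0% of changes of 1 and 8.94% of changes of 2, with a false share of 21%. With 6574 probes changed it recovered 42.34% of changes of 0.5, 80.98% of changes of 1 and 94.48% of changes of 2, with a false share of 2.62%.

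Symbols came from the RefSeq gene table of assembly GRCr8, matched on accessions without version: 14294 probes had a symbol and 10390 none. For genes with more than 1 probe, the brightest stood for the gene. The array design is annotated on another assembly, so coordinates refer only to the RefSeq promoters, of which 39 of 43 were matched. All named proteasome genes are accounted for. Array values are given for Psmb5 to Psmb10, for Psme1 and for up to 4 called members of each class with the largest change, and lists give up to 4 called genes and some named whatever their result; a few that this would name are not reported here. Array values of further members were picked with their values known. The members, lists and tests were chosen with earlier results of these data known. Alternatives covered scaling, background correction, the filter, the treatment of scans, the replicate number as a block and leaving out each array.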

Additional observations from a re-analysis of the deposited data

How the results depend on the processing

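Lower calls of the core and cap kept their direction under all alternatives run, and 16 of the 26 lower calls of proteasome genes, with 1 of the 8 higher ones (Psmb9), were past the threshold under every alternative of scaling, correction, filter, scans, block and left-out array that tested them. The cause of the changes below was not tested. Without scaling between arrays, all probes gave 7795 lower and 768 higher calls, proteasome genes gave 1 higher call in all (Psmb9), and core and cap gave 0. The medians were then -1.63 for the core, -1.96 for the cap and -0.13 for the immunoproteasome, Psmb8 was -0.13, Psmb10 -0.35, Psma6 -0.22, Psmb2 -0.50, Psme1 -0.24 and Psme3 -0.14. After normexp with the 75th percentile, all probes gave 1720 lower and 932 higher calls, and proteasome genes again 1 higher (Psmb9) and core and cap 0. The medians were -0.83, -1.09 and 0.44 for core, cap and immunoproteasome, Psmb8 was 0.44, Psmb10 0.17 and Psmd10 0.29, and the shifts over Psmb5, Psmb6 and Psmb7 were 1.63, 1.13 and 1.60. After normexp with quantile scaling those shifts were 1.62, 1.24 and 1.64, the medians -0.51 for the core and -0.73 for the cap, and Psma7 was 0.0054. Core and cap medians were -0.57 and -0.93 with quantile, -0.77 and -1.06 with cyclic loess, -0.60 and -0.94 with the deposited values, and -0.52 and -0.85 with the percentile over detected probes. The immunoproteasome median was 0.67 with cyclic loess and 0.98 with that percentile, where Psmb3 was 0.0041 and Psmb6 0.0602. Testing without a filter gave 6800 higher calls over all probes, the filter on all 6 scans a cap median of -0.96, and 6 scans as replicates, with or without the session as a block, a core median of -0.70. Leaving out 1 array gave 2120 to 2738 higher calls over all probes, 4 to 5 among proteasome genes and 1 in core and cap. It gave core medians of -0.73 to -0.64, cap medians of -1.05 to -0.99, immunoproteasome medians of 0.76 to 0.89 and Psmb10 values of 0.53 to 0.68. Psmb3 ranged over -0.33 to 0.025 (above 0 without AP 1) and Psmd10 over -0.45 to 0.0373 (above 0 without control 1).

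With the replicate number as a block, Psmb10 stayed at 0.60 and was no longer called (adjusted p = 0.0676), and proteasome genes gave 23 lower and 6 higher calls. Arrays of the same number did not deviate together (r = -0.228 over 10005 probes), so the numbers are not taken as pairs. A block with crossed numbers, chosen after seeing the data, gave 26 lower and 6 higher calls, 1 of them in core and cap. Arrays limit all of this: 2 per group, and no depth beyond the signal over background.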

Other observations

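Psmb8 and Psmb9 lie in the class II region of the rat major histocompatibility complex, among genes that are not proteasome genes, and these were chosen here by their place in the gene table. Within 6 gene positions, RT1-Db1 rose by 3.88 ± 0.12, RT1-Ba by 2.83 ± 0.09 and RT1-DMb by 1.15 ± 0.10 on the log2 scale, and RT1-Bb was at least 231-fold higher on the AP arrays. RT1-DOa rose by 1.20 ± 0.28 and RT1-Ha by 1.06 ± 0.16. RT1-DMa had a change of 0.31 ± 0.11 that did not pass the test (adjusted p = 0.0924), and Brd2 fell by 0.56 ± 0.10. Psmb9 and Tap1 start 457 bases apart on opposite strands in GRCr8, and Psmb9 rose by 1.85 ± 0.09 while Tap1 had 0.30 ± 0.12 (adjusted p = 0.11). The difference between these neighbours was not tested.

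Around Psmb10 the neighbours moved both ways: Nutf2 fell by 1.14 ± 0.12 and Slc12a4 by 0.75 ± 0.12, whereas Pskh1 rose by 0.70 ± 0.20 and Dus2 by 0.91 ± 0.09. Neighbours of Psme1 also moved both ways. The adjacent genes Fitm1 and Emc9 rose by 0.57 ± 0.16 and 0.58 ± 0.10, Emc9 without signal above background on the AP scans. Dcaf11 rose by 0.78 ± 0.21 and Rec8 by 1.33 ± 0.11. Pck2 was lower (-0.78 ± 0.09), and Ipo4 was at least 1.47-fold lower. Irf9, 4 positions away, had 3.76 and 3.91 on the AP arrays and 3.86 and 3.79 on the control arrays, so its groups overlapped, as did those of Rnf31.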
